A study of Mus musculus with 20 samples.

Results

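The plasminogen activation system was followed through 9 genes, *Plau*, *Plat*, *Plaur*, *Plgrkt*, *Serpine2*, *Serpinb2*, *Serpinb5*, *Serpinf1* and *Serpinh1*. They were chosen by name out of 45706 genes counted, with earlier results of these data known. All 9 were found in the count files and all 9 passed the filter on low counts, among 18617 genes tested in tumors and 15178 genes tested in cultured tumor cells. Urokinase, encoded by *Plau*, and tissue-type plasminogen activator, encoded by *Plat*, are serine proteases that cut the zymogen plasminogen into plasmin, which dissolves fibrin and degrades extracellular matrix. The urokinase receptor (*Plaur*) holds urokinase at the cell surface, and serpins trap the activators in inactive complexes that receptors of the LDL receptor family take up. In breast tumors, urokinase and its receptor are known as markers of invasive growth.

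RNA-Seq gene counts were available for 8 breast tumors and 12 cultures of tumor cells from mice with the *MMTV-PyMT* transgene, a polyoma virus oncogene active in mammary epithelium, on a C57BL/6N background. Tumors were taken at 18 weeks of age from 4 control mice, which carried CTSD-competent *Ctsd* alleles, and from 4 *MMTV-cre;Ctsd*-/- mice, in which Cre recombinase deletes *Ctsd* in mammary epithelium while stroma keeps it. The cultures came from spontaneously immortalized primary tumor cells of 1 *Ctsd*+/+ mouse and 1 *MMTV-cre;Ctsd*-/- mouse (called *Ctsd*-/- cells), with 3 cultures per group, kept in medium with 1% FCS for 10 days (1% FCS) or for 12 weeks (1% FCS LT). Since each genotype was 1 cell line, genotype and line cannot be told apart, and p-values for cells measure the spread between cultures of a line.

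Between 49725437 and 64291587 reads per tumor and between 33622831 and 40239762 reads per culture were assigned to genes. Levels are given as scaled counts (CPM, with TMM size factors) within tumors and within cells, so tumor and cell levels stand side by side without a test. The sample descriptions carry one LR number, of unstated meaning, for all 4 control tumors and another for all 4 *MMTV-cre;Ctsd*-/- tumors, so this number and the tumor genotype cannot be told apart. In cells, replicate 1 of both 1% FCS groups shares an LR number, replicate 3 of both 1% FCS LT groups shares another, and the other 8 cultures share the one left.

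*Ctsd* itself was read first. Its level was 1860.2, 2617, 1781 and 2532 CPM in the control tumors and 797, 360.2, 1295 and 1233 CPM in the *MMTV-cre;Ctsd*-/- tumors. The 4 values with CTSD loss were all smaller than the 4 control values, and part of the *Ctsd* signal remained in each. The log2 FC in tumors was −1.25 ± 0.38 SE, and edgeR did not call it (edgeR adjusted p = 0.463). In 1% FCS, *Ctsd* was at 4199, 2858 and 1267 CPM in *Ctsd*+/+ cultures and at 192, 141 and 131 CPM in *Ctsd*-/- cultures. After 12 weeks it was at 1627, 1667 and 1895 CPM in *Ctsd*+/+ cultures and at 123, 114 and 151 CPM in *Ctsd*-/- cultures. The genotype labels thus matched the target gene in each of the 20 samples.

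Cell type markers set the 1% FCS *Ctsd*+/+ cultures apart from the other cells. The summed level of 5 luminal epithelial markers was 878, 1416 and 1692 CPM in them, against 4284 to 10112 CPM in the other 9 cultures, and *Epcam*, an epithelial adhesion molecule, was at 128, 171 and 145 CPM against 648 to 858 CPM. The summed level of 6 fibroblast markers was 626, 2616 and 1513 CPM in the 1% FCS *Ctsd*+/+ cultures and 3.03 to 14.9 CPM in the other 9. The most abundant of these was the collagen gene *Col1a1*, at 531, 2320.1 and 1460.1 CPM, and nearly all of the rest was *Col3a1* and *Pdgfra*. *Col1a2* was at 0.510, 2.60 and 3.69 CPM and *Dcn* at 1.86, 0.366 and 0 CPM, and *Lum* had 0 counts. Which cells carried these transcripts was not tested. Every comparison below that includes the 1% FCS *Ctsd*+/+ cultures carries this difference in markers, and its part in the results was not tested. Luminal markers also differed over time in *Ctsd*-/- cells, at 7311, 9668 and 10112 CPM in 1% FCS and 5196, 5660.0 and 6011 CPM in 1% FCS LT, and the long-term changes in *Ctsd*-/- cells carry this difference. In 1% FCS LT they were at 4702, 4506 and 4284 CPM in *Ctsd*+/+ cultures, below *Ctsd*-/- without overlap. There *Krt18* was called higher with CTSD loss (log2 FC 0.78, edgeR adjusted p = 0.0105) and *Cdh1* lower (log2 FC −1.055, edgeR adjusted p = 9.37e-05). The fibroblast marker *Pdgfra* was called higher (log2 FC 1.59, edgeR adjusted p = 0.0374). The genotype results in 1% FCS LT carry these differences. The 6 basal epithelial markers summed to 45.5, 102 and 58.4 CPM in 1% FCS *Ctsd*+/+ and to 76.8, 66.9 and 19.2 CPM in 1% FCS LT *Ctsd*+/+ cultures, against 4.14 to 8.57 CPM in the 6 *Ctsd*-/- cultures. Both comparisons of the genotypes carry this difference, in *Krt14* at both times and in 1% FCS also in *Acta2* and *Trp63*. *Acta2* was at 5.01, 53.9 and 25.6 CPM in 1% FCS *Ctsd*+/+ and 0 in 1% FCS *Ctsd*-/- cultures. *Trp63* was called lower in 1% FCS (log2 FC −4.67, edgeR adjusted p = 0.00394). *Krt5*, at most 0.726 CPM in any culture, went the other way, higher in *Ctsd*-/- cultures at both times without overlap. Its log2 FC was 2.53 in 1% FCS (edgeR adjusted p = 0.0369) and 1.86 in 1% FCS LT (edgeR adjusted p = 0.0715). These values of *Krt5* are a description, since only *Ctsd*-/- cultures, where it is higher, brought it past the filter. Markers of other cell types were low in all 12 cultures, with sums of at most 20.8 CPM for 5 macrophage markers, 7.01 CPM for 5 endothelial markers and 4.40 CPM for 4 neutrophil markers. The 5 adipocyte, 4 T cell and 3 B cell markers summed to at most 1.84, 0.0799 and 0.203 CPM.

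Markers of these cell types were found in the tumors, those of B cells at very low levels. Adipocyte markers summed to 267, 848, 209 and 2151 CPM in control tumors and to 2786, 1045, 6418 and 10744 CPM in *MMTV-cre;Ctsd*-/- tumors, with *Fabp4* the most abundant. Endothelial markers summed to 79.7, 94.4, 45.0 and 46.3 CPM in control tumors and to 60.8, 94.0, 234 and 224 CPM in *MMTV-cre;Ctsd*-/- tumors, with *Pecam1* the most abundant. *MMTV-cre;Ctsd*-/- tumors 3 and 4 were thus the richest of the 8 in both. Basal epithelial markers were also highest in these 2 tumors, at 2039 and 1270.3 CPM, against 497 to 1197 CPM in the other 6. In tumor tissue, fewer cells of a type and less RNA per cell cannot be told apart. Luminal, fibroblast and macrophage markers summed to 3991 to 7887, 851 to 3405 and 426 to 929.5 CPM over the 8 tumors, and neutrophil, T cell and B cell markers to 16.2 to 75.3, 7.91 to 14.4 and 0.216 to 2.71 CPM.

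Per kilobase of exon, the order of the 9 genes differed between tumors and cells. In control tumors, mean levels per kilobase ran from 139 for *Serpinh1*, 77.7 for *Serpinb5* and 65.3 for *Serpinf1* down to 2.17 for *Plau* and 1.51 for *Serpinb2*. In the cells, *Plau* had the highest mean level per kilobase of the 9 genes in all 4 groups, from 67.5 CPM per kb in 1% FCS *Ctsd*+/+ cultures to 534 CPM per kb in 1% FCS *Ctsd*-/- cultures. *Serpinf1* had the lowest in all 4 cell groups, from 0.0149 to 0.466 CPM per kb.

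**Figure D1:**
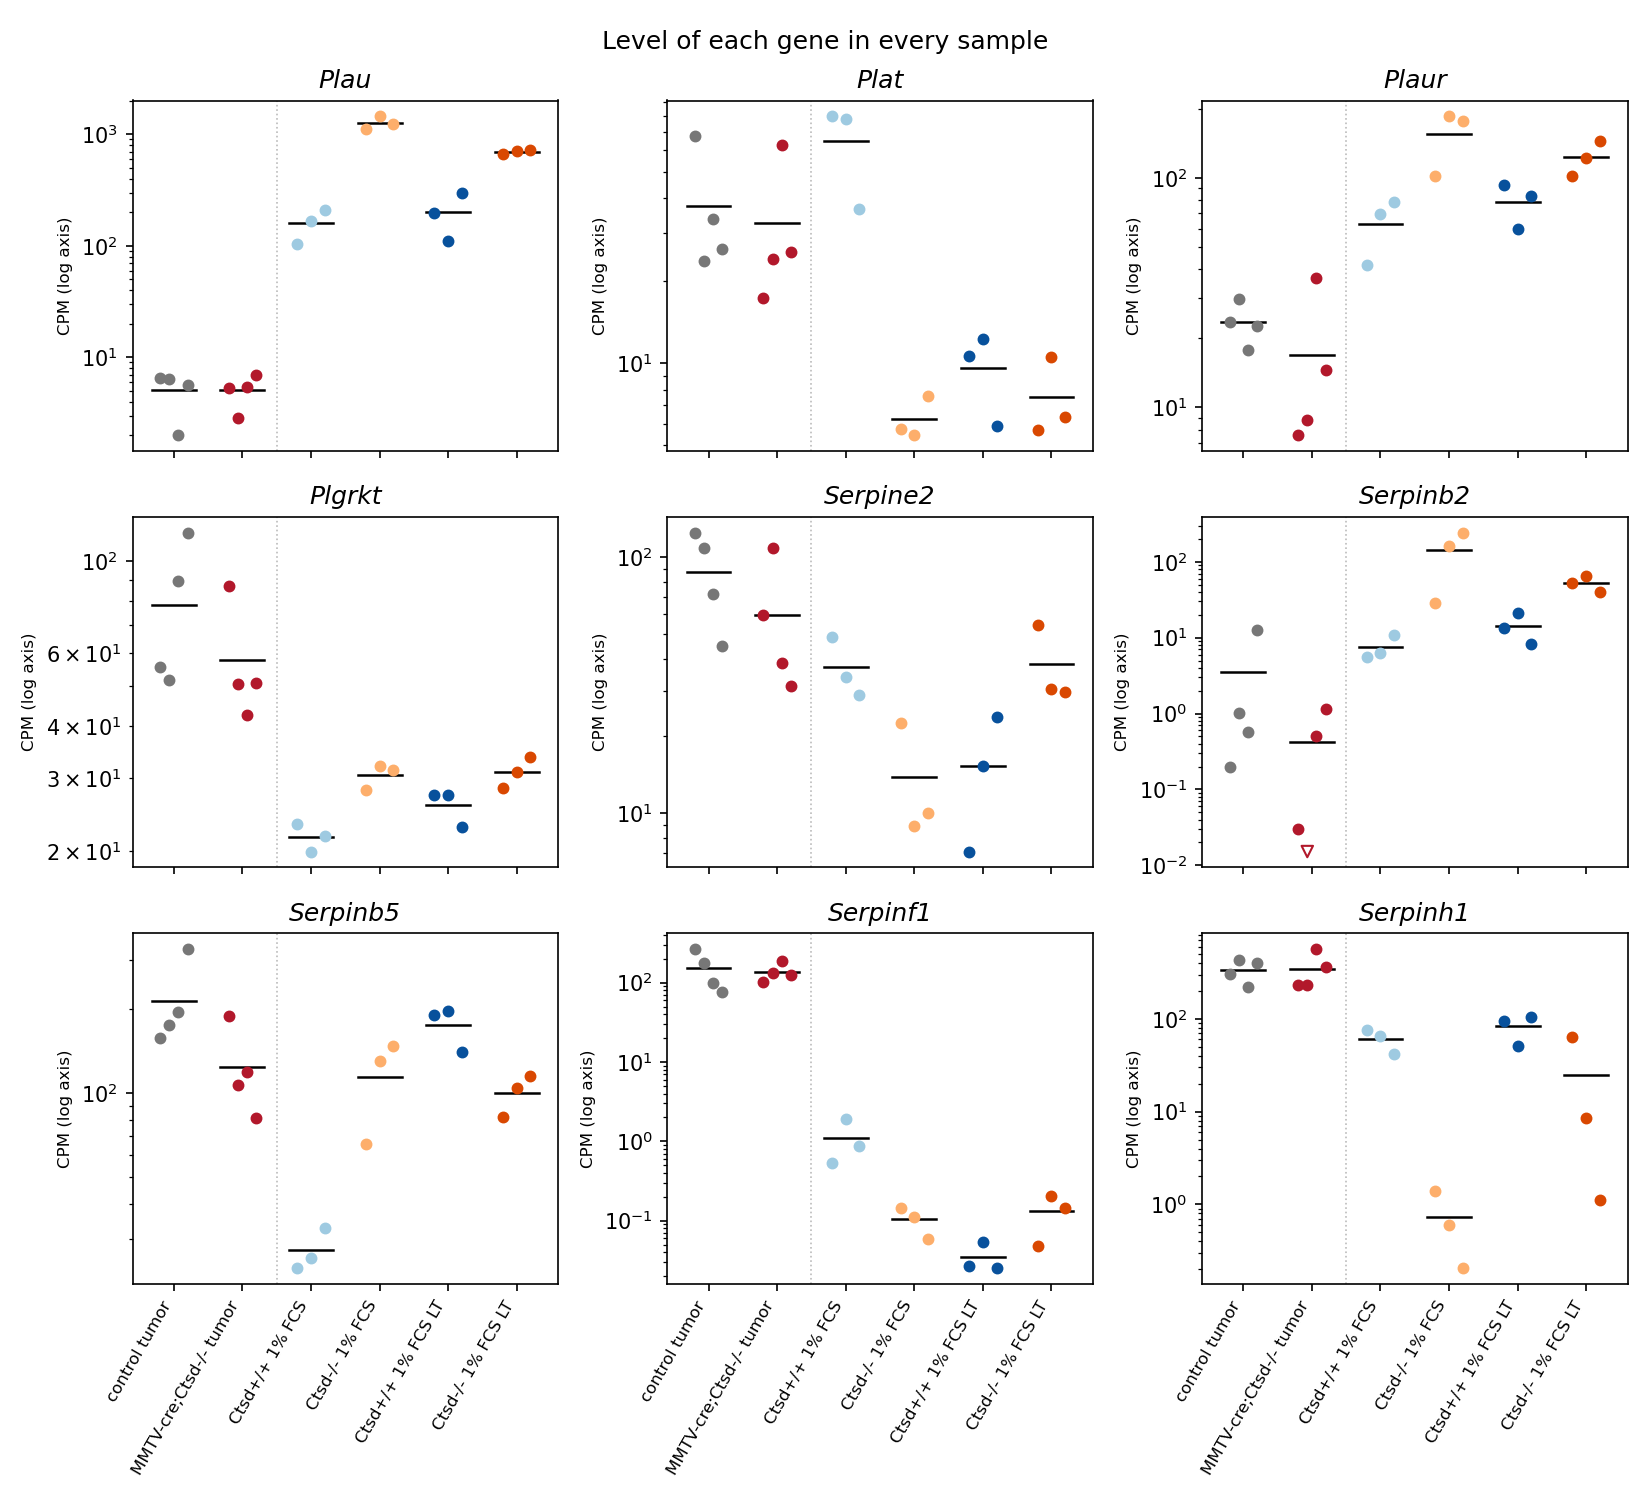
Level in CPM (log axis, a separate scale for each gene) of the 9 genes in every sample, by group; points are samples, black bars are group means, the dotted line parts tumors from cells, and the open triangle marks the tumor with 0 counts of *Serpinb2*. *Plau* lies between 2.01 and 7.0 CPM in the tumors and between 104 and 1447 CPM in the cells, and *Serpinf1* shows the reverse order, with 75.6 to 265 CPM in the tumors and at most 1.89 CPM in the cells.

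Comparisons were called at an edgeR adjusted p below 0.05. Counts of called genes set beside the share of all genes are a description, since the 9 genes were chosen with earlier results known. For 1% FCS *Ctsd*-/- against 1% FCS *Ctsd*+/+, 5 of the 9 genes were called higher, against 23.5% of all genes tested, and 4 were called lower, against 25.1%. All 9 were thus called, against 48.5% of all genes, and the sample ranges of the groups did not overlap for any of the 9, against 55.2% of all genes. The calls of *Serpinf1* in these counts that involve 1% FCS *Ctsd*+/+ are a description, since only that group, where it is high, brought it past the filter. For 1% FCS LT *Ctsd*-/- against 1% FCS LT *Ctsd*+/+, 3 were called higher, against 20.5% of all genes, and 1 lower, against 19.1%, so 4 against 39.6%, and ranges did not overlap for 6, against 54.2%. From 1% FCS to 1% FCS LT, 1 gene was called higher and 3 lower in *Ctsd*+/+ cells, against 23.0% and 23.4% of all genes, so 4 against 46.4%, and ranges did not overlap for 4, against 53.7%. These 3 comparisons share cultures, and a large part of all genes tested was called in each. In *Ctsd*-/- cells, 0 of the 9 genes were called from 1% FCS to 1% FCS LT by edgeR, where 1.57% of all genes were called higher and 0.81% lower (2.38% either way). These shares depended on single cultures, with 31 genes called higher and 30 lower without *Ctsd*-/- replicate 3 of 1% FCS, in place of 238 and 123. For this comparison, ranges did not overlap for 2 of the 9, against 25.4% of all genes.

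Of the 9 genes, 4 had an unadjusted p under 0.05 in that last comparison, against 18.0% of all genes. DESeq2 called 2 of these 4 higher, beside 666 higher and 418 lower of all 15178 genes tested. With limma-voom 0 of the 9 were called, beside 182 higher and 121 lower of all genes. The median log2 FC of the 9 genes was 0.49 in 1% FCS *Ctsd*-/- against *Ctsd*+/+, 0.64 in 1% FCS LT *Ctsd*-/- against *Ctsd*+/+, 0.03 for the long-term change in *Ctsd*-/- cells and 0.32 for that in *Ctsd*+/+ cells. Over all genes tested the medians were 0.0002, 0.0145, −0.0014 and 0.0045. Whether the long-term change differed between the genotypes was tested by the interaction, which takes the genotype difference at 10 days away from that at 12 weeks. It called 4 of the 9 genes higher, against 16.1% of all genes, and 1 lower, against 14.1% (5 in all, against 30.3%), with a median of −0.23 beside −0.0035 over all genes.

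**Figure D2:**
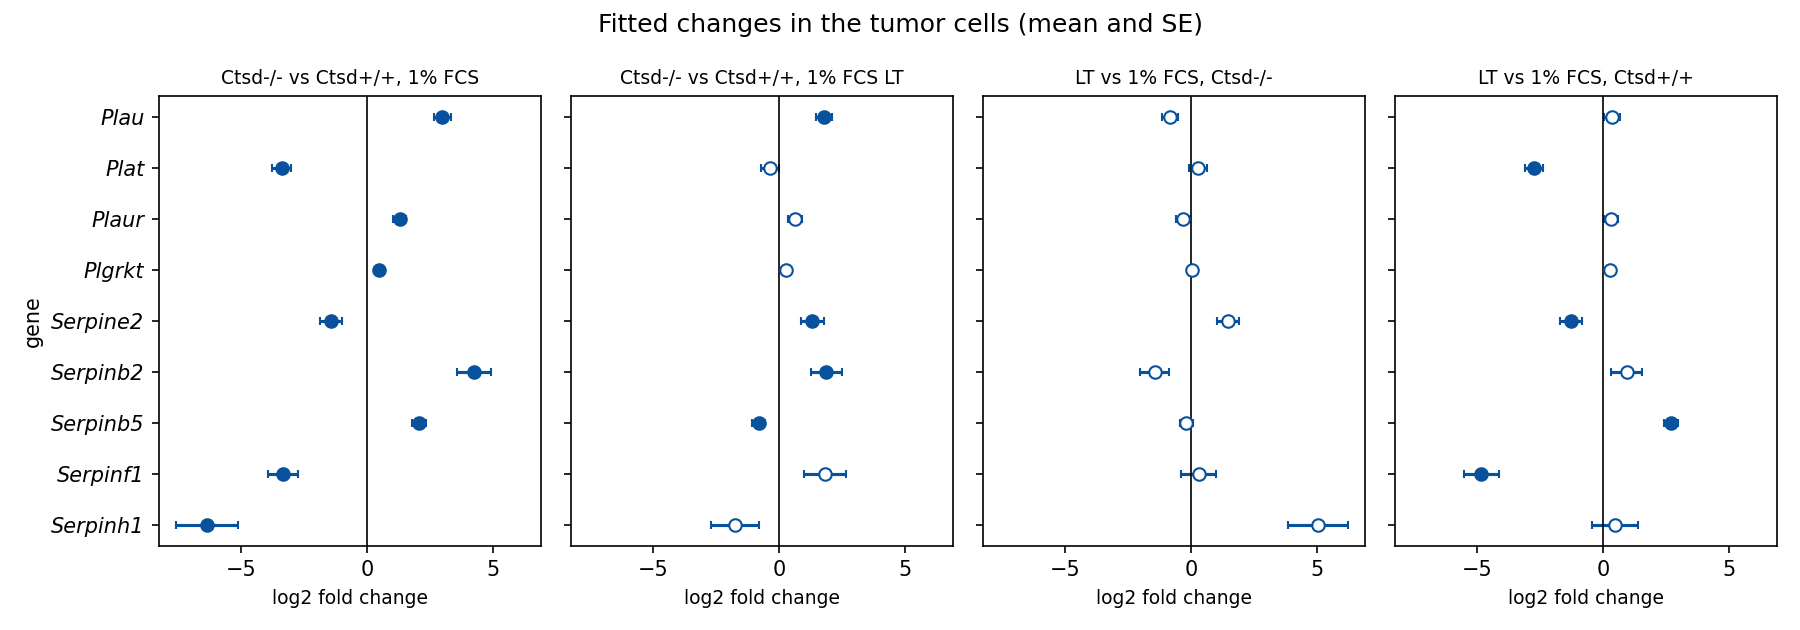
Log2 FC with its SE (horizontal axis) of the 9 genes (vertical axis) in 4 comparisons of the cultured tumor cells; filled points have an edgeR adjusted p below 0.05. All 9 points are filled for 1% FCS *Ctsd*-/- against *Ctsd*+/+, and none is filled for the long-term change in *Ctsd*-/- cells, where *Serpinh1* lies at 5.03.

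*Plau* (ENSMUSG00000021822, chr14:20836660-20843385, plus strand, GRCm38) encodes urokinase. In 1% FCS it was at 104, 168 and 208 CPM in the *Ctsd*+/+ cultures and at 1108, 1447 and 1235 CPM in the *Ctsd*-/- cultures. After long-term starvation it was at 196, 111 and 298 CPM in the *Ctsd*+/+ cultures and at 665, 703 and 730.0 CPM in the *Ctsd*-/- cultures. All 6 *Ctsd*-/- cultures lay above all 6 *Ctsd*+/+ cultures, and the 1% FCS LT *Ctsd*-/- cultures lay below the 1% FCS *Ctsd*-/- cultures without overlap. The difference between genotypes was 7.90-fold in 1% FCS (log2 FC 2.98 ± 0.33 SE, edgeR adjusted p = 2.34e-05). In 1% FCS LT it was 3.47-fold (log2 FC 1.79 ± 0.32 SE, edgeR adjusted p = 0.000928). *Plau* thus rose with CTSD loss at both times, with each of 3 *Ctsd*-/- cultures above the *Ctsd*+/+ range.

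The long-term log2 FC of *Plau* was −0.85 ± 0.31 SE in *Ctsd*-/- cells (edgeR adjusted p = 0.177) and 0.33 ± 0.31 SE in *Ctsd*+/+ cells (edgeR adjusted p = 0.404). In *Ctsd*-/- cells the adjusted p ran from 0.0161, with only these groups in the fit, to 0.245 over the other tools and settings. Without 1 culture it ran from 0.195 to 0.381. The interaction had a log2 FC of −1.19 ± 0.44 SE and an edgeR adjusted p of 0.0609, so a smaller genotype difference after 12 weeks did not pass the edgeR test. The adjusted p was 0.023 with DESeq2, in a range from 0.0223 to 0.187 over the other tools and settings, and it ran from 0.0117 to 0.15 without 1 culture, so the side of the threshold depends on the tool and the cultures. Means in order were 1263 ± 171 CPM (SD, n = 3) in 1% FCS *Ctsd*-/-, 699 ± 32.7 in 1% FCS LT *Ctsd*-/-, 202 ± 93.6 in 1% FCS LT *Ctsd*+/+ and 159.8 ± 52.5 in 1% FCS *Ctsd*+/+ cultures. The last pair overlapped and the other neighbors did not.

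*Plat* (ENSMUSG00000031538, chr8:22757727-22782844, plus strand) encodes the tissue-type activator, best known for clot lysis in blood vessels. It was at 79.8, 78.0 and 36.6 CPM in 1% FCS *Ctsd*+/+ cultures and at 5.74, 5.45 and 7.57 CPM in 1% FCS *Ctsd*-/- cultures. After 12 weeks it was at 10.6, 12.3 and 5.91 CPM in *Ctsd*+/+ cultures and at 5.67, 10.5 and 6.36 CPM in *Ctsd*-/- cultures. One group, 1% FCS *Ctsd*+/+, was high, and the other 3 overlapped their neighbors in order. These are the cultures with raised *Col1a1*, *Col3a1* and *Pdgfra* and low luminal markers.

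In 1% FCS, *Plat* was 10.4-fold lower in *Ctsd*-/- than in *Ctsd*+/+ cultures (log2 FC −3.37 ± 0.37 SE, edgeR adjusted p = 2.14e-05, lower in 3 of 3). At 12 weeks the log2 FC was −0.35 ± 0.35 SE (edgeR adjusted p = 0.451). *Plat* fell over time in *Ctsd*+/+ cells (log2 FC −2.75 ± 0.36 SE, edgeR adjusted p = 8.73e-05), whereas in *Ctsd*-/- cells the log2 FC was 0.27 ± 0.35 SE (edgeR adjusted p = 0.744). The interaction was called, at a log2 FC of 3.02 ± 0.50 SE and an edgeR adjusted p of 0.000887. In the 1% FCS *Ctsd*-/- cells, then, the levels of the activators stood apart, at 534 CPM per kb for *Plau* and 1.00 CPM per kb for *Plat*, while in 1% FCS *Ctsd*+/+ cells they were at 67.5 and 10.4 CPM per kb.

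*Plaur* (ENSMUSG00000046223, chr7:24462484-24475968, plus strand) encodes the GPI-anchored urokinase receptor. Its level was 41.9, 69.6 and 78.2 CPM in 1% FCS *Ctsd*+/+ cultures and 102, 185 and 177 CPM in 1% FCS *Ctsd*-/- cultures. After long-term starvation it was 93.2, 59.8 and 83.2 CPM in *Ctsd*+/+ cultures and 102, 122 and 145 CPM in *Ctsd*-/- cultures. At both times each *Ctsd*-/- culture lay above each *Ctsd*+/+ culture. *Plaur* rose 2.45-fold with CTSD loss in 1% FCS (log2 FC 1.29 ± 0.27 SE, edgeR adjusted p = 0.00229). With long-term starvation the log2 FC was 0.64 ± 0.27 SE and missed the threshold (edgeR adjusted p = 0.0802), and the interaction was not called either (log2 FC −0.65 ± 0.38 SE, edgeR adjusted p = 0.23). For the 1% FCS LT comparison of *Plaur*, the adjusted p ran from 0.0304, with only these groups in the fit, to 0.0895 over the other tools and settings, and from 0.0719 to 0.249 without 1 culture.

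*Plgrkt* (ENSMUSG00000016495, chr19:29348599-29367390, minus strand) encodes a membrane protein that binds plasminogen through a C-terminal lysine. It varied least of the 9 genes in the cells, from 19.9 to 33.6 CPM over the 12 cultures. In 1% FCS it was at 23.2, 19.9 and 21.8 CPM in *Ctsd*+/+ and at 28.0, 32.0 and 31.4 CPM in *Ctsd*-/- cultures, which did not overlap. The rise was 1.41-fold (log2 FC 0.49 ± 0.12 SE, edgeR adjusted p = 0.0043). In 1% FCS LT the log2 FC was 0.27 ± 0.12 SE (edgeR adjusted p = 0.0884).

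*Serpine2* (ENSMUSG00000026249, chr1:79794197-79861180, minus strand) encodes protease nexin-1, an inhibitor of thrombin and of the plasminogen activators. It was at 48.7, 34.0 and 28.9 CPM in 1% FCS *Ctsd*+/+ cultures and at 22.6, 8.93 and 9.99 CPM in 1% FCS *Ctsd*-/- cultures. At 12 weeks it was at 7.08, 15.3 and 23.7 CPM in *Ctsd*+/+ cultures and at 54.2, 30.4 and 29.8 CPM in *Ctsd*-/- cultures. The order of the genotypes was thus opposite at the 2 times, without overlap at either. CTSD loss went with a fall in 1% FCS (log2 FC −1.42 ± 0.45 SE, edgeR adjusted p = 0.0213) and with a rise in 1% FCS LT (log2 FC 1.31 ± 0.45 SE, edgeR adjusted p = 0.0365). Over time *Serpine2* fell in *Ctsd*+/+ cells (log2 FC −1.28 ± 0.45 SE, edgeR adjusted p = 0.0358) and had a log2 FC of 1.46 ± 0.45 SE in *Ctsd*-/- cells (edgeR adjusted p = 0.117). In *Ctsd*-/- cells the ranges at the 2 times did not overlap. The adjusted p there ran from 0.0165, with DESeq2, to 0.123 over the other tools and settings, and from 0.0617 to 0.345 without 1 culture.

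The interaction tested this turn directly and called *Serpine2*, at a log2 FC of 2.74 ± 0.64 SE and an edgeR adjusted p of 0.00723. The adjusted p was at most 0.0217 without any 1 culture. The single comparisons were less firm. In 1% FCS the adjusted p of *Serpine2* was 0.0698 without *Ctsd*+/+ replicate 1, 0.0826 without *Ctsd*-/- replicate 2 and 0.0805 without *Ctsd*-/- replicate 3. After long-term starvation it was 0.109 without *Ctsd*+/+ replicate 1, 0.092 without *Ctsd*+/+ replicate 2 and 0.136 without *Ctsd*-/- replicate 1. For the fall in *Ctsd*+/+ cells it was 0.107 and 0.0565 without 1% FCS replicates 1 and 2, and 0.106 and 0.0881 without 1% FCS LT replicates 1 and 2.

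*Serpinb2* (ENSMUSG00000062345, chr1:107511423-107535478, plus strand) encodes plasminogen activator inhibitor type 2, an inhibitor of urokinase that is found largely inside cells. Of its exon length, 12.4% overlaps *Serpinb10* on the same strand, so reads there could not be assigned to one gene. It was at 5.64, 6.20 and 10.8 CPM in 1% FCS *Ctsd*+/+ cultures and at 28.9, 159.6 and 241 CPM in 1% FCS *Ctsd*-/- cultures. After 12 weeks it was at 13.5, 21.3 and 8.16 CPM in *Ctsd*+/+ cultures and at 52.8, 64.5 and 40.4 CPM in *Ctsd*-/- cultures. All 6 *Ctsd*-/- cultures exceeded all 6 *Ctsd*+/+ cultures, with *Ctsd*-/- replicate 1 of 1% FCS, which has another LR number, far below the other 2 of its group.

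The rise of *Serpinb2* was 19.0-fold in 1% FCS (log2 FC 4.25 ± 0.66 SE, edgeR adjusted p = 0.000267), and the log2 FC ran from 3.65, without *Ctsd*-/- replicate 3, to 4.73, without *Ctsd*-/- replicate 1. With long-term starvation it was 3.67-fold (log2 FC 1.88 ± 0.60 SE, edgeR adjusted p = 0.026). The second call depended on single cultures. Its adjusted p was 0.0753 and 0.0879 without *Ctsd*+/+ replicates 1 and 3, 0.0508 and 0.073 without *Ctsd*-/- replicates 1 and 2, and 0.0501 with limma-voom, the highest of a range from 0.0024 over the other tools and settings. The interaction had a log2 FC of −2.37 ± 0.84 SE and an edgeR adjusted p of 0.0508. Without *Ctsd*-/- replicate 1 of 1% FCS the interaction was −2.85 (adjusted p = 0.00253), without *Ctsd*+/+ replicate 3 of 1% FCS it was −2.73 (adjusted p = 0.0433), and without *Ctsd*+/+ replicate 3 of 1% FCS LT it was −2.65 (adjusted p = 0.0419). Without any other 1 culture the adjusted p ran from 0.0728 to 0.137, the highest without *Ctsd*-/- replicate 3 of 1% FCS (log2 FC −1.76), and the other tools and settings ran from 0.00298 to 0.233, called by DESeq2 (0.0365) and not by limma-voom (0.233), so this interaction is not settled.

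*Serpinb5* (ENSMUSG00000067006, chr1:106861173-106883348, plus strand) encodes maspin, a serpin of mammary epithelium that does not act as a classical protease inhibitor. Its level was 23.7, 25.8 and 33.0 CPM in 1% FCS *Ctsd*+/+ cultures and 65.6, 129.7 and 148 CPM in 1% FCS *Ctsd*-/- cultures. In 1% FCS LT it was 189.8, 196 and 141 CPM in *Ctsd*+/+ cultures and 81.7, 104 and 115 CPM in *Ctsd*-/- cultures. Here too the order of the genotypes was opposite at the 2 times. The lowest group was 1% FCS *Ctsd*+/+, the cultures with the lowest luminal markers.

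*Serpinb5* was 4.16-fold higher in *Ctsd*-/- than in *Ctsd*+/+ cells in 1% FCS (log2 FC 2.06 ± 0.27 SE, edgeR adjusted p = 8.04e-05) and 1.75-fold lower in 1% FCS LT (log2 FC −0.81 ± 0.26 SE, edgeR adjusted p = 0.0277). It rose over time in *Ctsd*+/+ cells (log2 FC 2.67 ± 0.28 SE, edgeR adjusted p = 1.53e-05), while in *Ctsd*-/- cells the log2 FC was −0.19 ± 0.26 SE (edgeR adjusted p = 0.755). The interaction was called at a log2 FC of −2.87 ± 0.38 SE (edgeR adjusted p = 0.000182). Only the 1% FCS LT call was lost without single cultures. Its adjusted p was 0.0792 and 0.0889 without *Ctsd*+/+ replicates 1 and 2, and 0.0995 and 0.0654 without *Ctsd*-/- replicates 1 and 2.

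*Serpinf1* (ENSMUSG00000000753, chr11:75409769-75422701, minus strand) encodes pigment epithelium-derived factor, a secreted serpin without protease inhibition that is known to restrain blood vessel growth. The cells had very few reads of it, with 18, 62 and 33 counts in 1% FCS *Ctsd*+/+ cultures, 6, 4 and 2 in 1% FCS *Ctsd*-/-, 1, 2 and 1 in 1% FCS LT *Ctsd*+/+ and 2, 8 and 6 in 1% FCS LT *Ctsd*-/- cultures. Its place among the genes tested in cells rests on 1% FCS *Ctsd*+/+, the group that is high, so its calls against that group are a description. Corrected for library size, the summed counts of 1% FCS *Ctsd*+/+ were 10.1 times those of 1% FCS *Ctsd*-/- (exact 95% interval 5.54 to 20.1) and 30.9 times those of 1% FCS LT *Ctsd*+/+ (exact 95% interval 11.7 to 115). For 1% FCS LT *Ctsd*-/- against *Ctsd*+/+ the ratio was 3.74 (exact 95% interval 1.21 to 15.4), on 16 against 4 counts. These intervals cover counting error only.

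The fitted log2 FC of *Serpinf1* was −3.32 ± 0.59 SE in 1% FCS (edgeR adjusted p = 0.000702) and 1.82 ± 0.82 SE in 1% FCS LT (edgeR adjusted p = 0.0993). The interaction, which contains 1% FCS *Ctsd*+/+, had a log2 FC of 5.14 ± 1.00 SE (edgeR adjusted p = 0.00259) and is likewise a description. Like *Plat*, *Serpinf1* was highest among cells in the cultures with raised *Col1a1*, *Col3a1* and *Pdgfra*. The part of that difference was not tested.

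*Serpinh1* (ENSMUSG00000070436, chr7:99345376-99353239, minus strand) encodes HSP47, a serpin of the endoplasmic reticulum that acts as a chaperone of procollagen and inhibits no protease. It was at 75.5, 65.3 and 41.5 CPM in 1% FCS *Ctsd*+/+ cultures and at 1.39, 0.602 and 0.207 CPM in 1% FCS *Ctsd*-/- cultures. At 12 weeks it was at 95.1, 50.6 and 104 CPM in *Ctsd*+/+ cultures and at 64.4, 8.60 and 1.11 CPM in *Ctsd*-/- cultures. The 3 long-term *Ctsd*-/- cultures thus spanned nearly the whole range between the other groups, and replicate 1 lay inside the *Ctsd*+/+ range. Raw counts of *Serpinh1* in these 3 cultures were 2688, 334 and 46.

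In 1% FCS, *Serpinh1* was 80.2-fold lower with CTSD loss (log2 FC −6.33 ± 1.23 SE, edgeR adjusted p = 0.00127), the largest change of the 9 genes in the cells, and the log2 FC ran from −7.19, without *Ctsd*-/- replicate 1, to −5.91, without *Ctsd*-/- replicate 3. *Ctsd*+/+ cultures had high levels at both times, with a long-term log2 FC of 0.46 ± 0.91 SE (edgeR adjusted p = 0.709). In *Ctsd*-/- cells the long-term log2 FC was 5.03 ± 1.19 SE at an edgeR adjusted p of 0.0508. For this change DESeq2 gave an adjusted p of 0.000372 and the other tools and settings gave up to 0.331. Without *Ctsd*-/- replicate 3 of 1% FCS LT the adjusted p was 0.00678 and without replicate 1 of 1% FCS LT the log2 FC was 2.68.

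Between genotypes in 1% FCS LT the log2 FC of *Serpinh1* was −1.75 ± 0.94 SE (edgeR adjusted p = 0.162). Without *Ctsd*-/- replicate 1 it was −4.10 (adjusted p = 0.0026), and limma-voom gave −3.21 (adjusted p = 0.0146) in a range from 0.0146 to 0.337 over the other tools and settings. The interaction was called at a log2 FC of 4.57 ± 1.48 SE and an edgeR adjusted p of 0.0354. That call was lost without any of 8 cultures. Without *Ctsd*-/- replicate 1 of 1% FCS LT it was 2.22 (adjusted p = 0.128), without 1% FCS *Ctsd*+/+ replicates 1 and 2 the adjusted p was 0.058 each, without 1% FCS *Ctsd*-/- replicates 2 and 3 it was 0.0808 and 0.0854, and without 1% FCS LT *Ctsd*+/+ replicates 1, 2 and 3 it was 0.0605, 0.0776 and 0.055. limma-voom gave 3.41 (adjusted p = 0.233).

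In the tumors, edgeR called 0 of the 9 genes for *MMTV-cre;Ctsd*-/- against control at an adjusted p below 0.05, where 0.00537% of all genes tested were called higher and 0.0% lower. DESeq2 and limma-voom called 0 as well. The deleted gene *Ctsd* was itself not called (edgeR adjusted p = 0.463), so a missing call does not show an unchanged gene. Over all genes tested DESeq2 called 204 higher and 61 lower, and limma-voom 2 higher and 0 lower. At an unadjusted p under 0.05, 1 of the 9 genes was lower, against 3.88% of all genes (8.94% either way), and at the looser threshold of an unadjusted p under 0.1, 2 were lower, against 8.27% of all genes, and 0 were higher, against 8.44%. Their median log2 FC was −0.44, beside 0.0007 over all genes. Sample ranges of the 2 groups overlapped for each of the 9, while they did not for 4.15% of all genes.

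The gene with an unadjusted p under 0.05 was *Serpinb5*, at 158, 176, 195 and 327 CPM in control tumors and 189, 107, 119 and 81.6 CPM in *MMTV-cre;Ctsd*-/- tumors. Tumors 2, 3 and 4 of the *MMTV-cre;Ctsd*-/- group lay below all controls and tumor 1 lay within them. All 5 adipocyte markers were higher at an edgeR unadjusted p under 0.05, and 0 of them were called at an adjusted p below 0.05. Luminal marker sums overlapped between the groups, and cell composition and *Serpinb5* per cell cannot be told apart. The log2 FC was −0.78 ± 0.32 SE (edgeR adjusted p = 0.545). *Serpinb2* was at 0.196, 1.00, 0.580 and 12.5 CPM in control tumors and at 0.0304, 0, 0.509 and 1.16 CPM in *MMTV-cre;Ctsd*-/- tumors. Control tumor 4 alone stood high. The log2 FC of −3.06 ± 1.49 SE (edgeR adjusted p = 0.576) was −0.49 without that tumor.

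*Plau* differed from the cell cultures in level more than between tumor genotypes. It was at 6.48, 6.45, 2.01 and 5.61 CPM in control tumors and at 5.35, 2.84, 5.39 and 7.0 CPM in *MMTV-cre;Ctsd*-/- tumors (log2 FC 0.00 ± 0.41 SE, edgeR adjusted p = 0.999). *Plaur* was at 23.7, 29.8, 17.8 and 22.6 CPM in control tumors and at 7.56, 8.83, 36.8 and 14.5 CPM in *MMTV-cre;Ctsd*-/- tumors. Of the latter, 3 lay below all controls and tumor 3, one of the pair rich in adipocyte and endothelial markers, lay above them. The log2 FC of *Plaur* was −0.47 ± 0.46 SE (edgeR adjusted p = 0.738), and it ran from −1.186 to −0.215 without 1 tumor. *Plat* ranged from 23.5 to 67.4 CPM in control tumors and from 17.3 to 62.9 CPM in *MMTV-cre;Ctsd*-/- tumors (log2 FC −0.21 ± 0.45 SE, edgeR adjusted p = 0.881).

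*Serpinf1* and *Serpinh1*, which the cell cultures held at low or very uneven levels, were abundant in every tumor. *Serpinf1* ranged from 75.6 to 265 CPM in control tumors and from 103 to 187 CPM in *MMTV-cre;Ctsd*-/- tumors, with a log2 FC of −0.17 ± 0.37 SE (edgeR adjusted p = 0.887). *Serpinh1* ranged from 221 to 430.0 CPM in control tumors and from 229.8 to 564 CPM in *MMTV-cre;Ctsd*-/- tumors, with a log2 FC of 0.03 ± 0.33 SE (edgeR adjusted p = 0.982). In whole tumors no difference of the size between the 1% FCS cell lines was seen. Tumors include stroma, which keeps *Ctsd*, so the levels in tumor epithelium alone were not measured. *Serpine2* and *Plgrkt* had log2 FC of −0.56 ± 0.42 SE and −0.44 ± 0.32 SE, with edgeR adjusted p of 0.682 and 0.667.

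Other genes of the pathway were taken from a list of 18, of which *Klkb1* was not analysed here and 17 were in the count files. Of these, 13 were tested in tumors and 11 in cells. Plasminogen, which liver makes for the circulation, had 0 to 4 counts of *Plg* per tumor and 0 to 1 per culture. *F12*, *Cpb2*, *Serpina5*, *Vtn* and *A2m*, which encode plasma proteins, were also not tested in cells, with at most 5 counts in any culture. Of the 13 genes tested in tumors, 0 were called by edgeR, against 0.00537% of all genes, and 0 had an unadjusted p under 0.05, against 8.94%, and their median log2 FC was 0.002.

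In 1% FCS *Ctsd*-/- against *Ctsd*+/+, 2 of the 11 genes were called higher, against 23.5% of all genes, and 6 lower, against 25.1%, with a median log2 FC of −0.65. The 6 uptake receptors gave 4 of the lower calls and 1 higher call. One of the lower calls, *Lrp2*, is a description, since only 1% FCS *Ctsd*+/+, where it is high, brought it past the filter, with 1 to 13 counts in each of the other 9 cultures. *Lrp1*, which clears complexes of activators and serpins, was at 3595, 5208 and 2370.4 CPM in 1% FCS *Ctsd*+/+ cultures and at 1134, 783 and 729 CPM in 1% FCS *Ctsd*-/- cultures. After long-term starvation it was at 117, 135 and 188 CPM in *Ctsd*+/+ cultures and at 1718, 1409 and 1551 CPM in *Ctsd*-/- cultures. No 2 of these 4 groups overlapped, and the genotypes changed places between the times.

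For *Lrp1* the log2 FC between genotypes was −2.08 ± 0.29 SE in 1% FCS (edgeR adjusted p = 0.000109) and 3.41 ± 0.30 SE in 1% FCS LT (edgeR adjusted p = 6.48e-06). Its interaction was 5.49 ± 0.42 SE (edgeR adjusted p = 4.17e-06). *Mrc2*, an endocytic collagen receptor that associates with urokinase and its receptor, was at 96.3, 147 and 71.1 CPM in 1% FCS *Ctsd*+/+ cultures and at 0.236 to 1.14 CPM in the other 9. *Lrp2* (megalin) was at 38.4, 18.1 and 25.4 CPM in 1% FCS *Ctsd*+/+ cultures and at most 0.330 CPM in the other 9. Both were thus high in the cultures with raised *Col1a1*, *Col3a1* and *Pdgfra*. *Serpini1* (neuroserpin), an inhibitor of the tissue-type activator, was at 14.0, 12.2 and 7.77 CPM there and at 0.438 to 1.89 CPM in the other 9, and fell with CTSD loss in 1% FCS (log2 FC −4.06 ± 0.37 SE, edgeR adjusted p = 5.55e-06).

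*Vldlr*, another receptor for these complexes, fell in 1% FCS (log2 FC −1.13 ± 0.18 SE, edgeR adjusted p = 0.000387), and the sorting receptor gene *Sorl1* rose (log2 FC 1.40 ± 0.29 SE, edgeR adjusted p = 0.00183). Among the plasminogen-binding proteins, *S100a10* rose (log2 FC 0.65 ± 0.19 SE, edgeR adjusted p = 0.0158) and *Eno1* fell (log2 FC −0.65 ± 0.16 SE, edgeR adjusted p = 0.00613). In 1% FCS LT, 2 of the 11 genes were higher in *Ctsd*-/- cells (20.5% of all genes) and 2 lower (19.1%). The higher genes were *Lrp1* and *Igf2r* (log2 FC 0.48 ± 0.17 SE, edgeR adjusted p = 0.0411). The 2 lower genes were *Sorl1* (log2 FC −1.20 ± 0.28 SE, edgeR adjusted p = 0.00569) and *Anxa2* (log2 FC −0.63 ± 0.20 SE, edgeR adjusted p = 0.0249), which encodes the annexin partner of S100A10. The median over the 11 was 0.01.

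Over time in *Ctsd*-/- cells, *Vldlr* was the 1 gene of the 11 called higher (log2 FC 0.87 ± 0.18 SE, edgeR adjusted p = 0.0336) and 0 were called lower, against 1.57% and 0.81% of all genes, with 4 at an unadjusted p under 0.05, against 18.0% of all genes. In *Ctsd*+/+ cells 1 was called higher, *Sorl1* (log2 FC 3.09 ± 0.30 SE, edgeR adjusted p = 1.02e-05), and 5 lower, with *Lrp1* at a log2 FC of −4.67 ± 0.32 SE (edgeR adjusted p = 7.9e-07), against 23.0% and 23.4% of all genes. The interaction called 5 higher and 1 lower, against 16.1% and 14.1% of all genes. *Lrp2* is among the 5 lower in *Ctsd*+/+ cells and the 5 higher in the interaction, again as a description. The medians of these 3 comparisons were 0.04, −0.47 and 0.45.

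Promoter windows from RefSeq (GRCm38.p6), from 250 bases before to 50 after the transcription start, matched 7 of the 9 genes, and *Plau* and *Plat* had no match. Both strands were searched for the AP-1-like heptamer TGANTCA (N is any base), the core TGACG of the cAMP response element, and the GC box GGGCGG. These AP-1 letters were found in 3 of the 7 windows, against 7.81% of all 32851 promoter windows. They read TGACTCA in *Plaur*, and TGAATCA in *Serpinb2* and *Serpinb5*. These are 3 of the 4 genes with a window that were called higher in 1% FCS *Ctsd*-/- cells, while *Plgrkt*, the fourth, and the 3 lower genes, *Serpine2*, *Serpinf1* (a description) and *Serpinh1*, held none. The directions differed in 1% FCS LT. There, of the genes with AP-1 letters, *Serpinb2* was called higher, *Serpinb5* lower and *Plaur* neither, and *Serpine2*, without them, was called higher. The core TGACG was in 0 of the 7 windows, against 20.8% of all, and the GC box in 5, against 35.7%. A match describes letters and not binding.

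The 250 bases before the start of the 3 genes with AP-1 letters are printed from 5′ to 3′ on the plus strand, with the AP-1 letters in capitals. They lie 140 bases before the start in *Serpinb5*, 94 in *Serpinb2* and 69 in *Plaur*. The windows are chr1:106860925-106861174 for *Serpinb5*, chr1:107511173-107511422 for *Serpinb2* and chr7:24462233-24462482 for *Plaur*.
Serpinb5: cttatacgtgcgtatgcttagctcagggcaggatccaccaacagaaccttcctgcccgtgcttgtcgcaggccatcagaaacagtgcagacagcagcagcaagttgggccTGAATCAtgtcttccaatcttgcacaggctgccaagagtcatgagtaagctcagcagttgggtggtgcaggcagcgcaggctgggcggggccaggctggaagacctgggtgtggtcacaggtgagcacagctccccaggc
Serpinb2: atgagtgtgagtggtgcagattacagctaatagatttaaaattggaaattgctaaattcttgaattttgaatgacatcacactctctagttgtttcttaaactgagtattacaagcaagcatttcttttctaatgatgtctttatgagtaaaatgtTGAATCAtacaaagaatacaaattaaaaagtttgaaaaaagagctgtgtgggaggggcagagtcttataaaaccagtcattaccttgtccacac
Plaur: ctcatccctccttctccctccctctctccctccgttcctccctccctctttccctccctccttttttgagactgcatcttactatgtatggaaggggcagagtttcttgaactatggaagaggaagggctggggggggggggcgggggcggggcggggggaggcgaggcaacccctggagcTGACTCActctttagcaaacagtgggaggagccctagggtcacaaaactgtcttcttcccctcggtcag

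Genes most like a member were sought by Pearson correlation of log2 CPM over the 12 cultures, among all genes tested in cells. The 12 points are 4 groups of 3, so r mostly follows the group means, and no p is given. The 3 highest for *Plau* were *Il23a* (r = 0.992), *Rem2* (r = 0.984) and *Ano1* (r = 0.978). For *Plaur* they were *Mtfr1* (r = 0.966), *Rsl1d1* (r = 0.965) and *Lsg1* (r = 0.962). *Plat* was most like *Gm5345* (r = 0.981), *Arhgap23* (r = 0.976) and *Chsy3* (r = 0.970).

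Among the serpins, *Serpinb5* was most like *Plpp2* (r = 0.978), *Rab25* (r = 0.972) and *Avpi1* (r = 0.971), and *Serpine2* most like *Pygo1* (r = 0.954), *Pcdhga3* (r = 0.940) and *Olfm1* (r = 0.928). *Serpinf1*, with few counts, was most like *Piezo2* (r = 0.964), *Dusp19* (r = 0.955) and *Prkd3* (r = 0.952). *Serpinh1* was most like *Ntrk2* (r = 0.969), *Ltbp4* (r = 0.960) and *Vps37d* (r = 0.953). The r of *Serpine2* was the lowest of these 7 top values.

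The comparisons above have limits. Genotype and cell line cannot be told apart in the cultures, the 4 cell comparisons and the interaction share cultures, and no correlation or overlap between them was computed. The 1% FCS *Ctsd*+/+ cultures differed from all others in luminal markers and in *Col1a1*, *Col3a1* and *Pdgfra*. Counts measure RNA, and plasmin activity, the proteins and their secretion were not analysed here. In tumors, each group had 4 mice, LR number and genotype coincided, and stroma kept *Ctsd*. The tumor comparison carries the higher adipocyte markers of *MMTV-cre;Ctsd*-/- tumors, 0 of 5 called by edgeR. It also carries the high endothelial markers of tumors 3 and 4 of that group. Few counts limit *Serpinf1* in cells and *Serpinb2* in tumors, and a shared exon with *Serpinb10* makes *Serpinb2* uncertain.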

How the data were processed

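RNA was sequenced by the authors, reads were trimmed with Trimmomatic and mapped to GRCm38/mm10 with STAR, and the deposited values are STAR counts of reads per gene, not normalized, and the annotation release and STAR version are not given in the sources used here. Counts regardless of strand were used for tumors and counts on the opposite strand for cells, as the values require, after leaving out the rows that name no gene. Of 45706 identifiers, 45143 matched GENCODE M21, which gave symbols, positions and exon lengths.

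Tumors and cells were fitted apart with edgeR 4.0.16 in R 4.3.3 (filterByExpr, TMM scaling, quasi-likelihood F-test, two-sided, Benjamini-Hochberg adjustment over all genes tested), with all 12 cultures in 1 fit. edgeR estimated a biological coefficient of variation of 0.429 (tumors) and 0.217 (cells). Replicates differed by more than sampling noise (chi-square per gene 15.8 to 609.4 over 24 pairs). Alternatives were DESeq2 1.42.0, limma-voom (limma 3.58.1), other scaling, filters, strands and thresholds, a replicate block, single replicates left out, 1 LR number and the compared groups alone. The scripts were tested on simulated data. Correlations used log2 CPM with a prior count of 2.

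The members and lists were chosen with earlier results of these data known. Named were every member, Ctsd, up to 3 called genes per list and comparison by absolute log2 fold change, and the 3 genes most correlated with each of 7 members. Sorl1 and Vldlr in 1% FCS and Sorl1 in the other cell comparisons were named after their values were seen.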

Additional observations from a re-analysis of the deposited data

Results flagged for a closer look

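Control tumor 4 had 12.5 CPM of *Serpinb2*, far from the next highest control tumor at 1.00 CPM. Its gap to that tumor was 0.934 of the whole range, above Dixon's critical value for 4 samples. The gap was taken on CPM without a log. Chance marks about 1 in 20 of the groups examined, and 1 of the 18 tumor groups (9 genes in 2 groups) was marked. This tumor also had the highest sum of neutrophil markers (75.3 CPM against 16.2 to 36.9 in the other 7) and of luminal markers (7887 CPM), and the fewest reads in genes (49725437). Its share of reads assigned to no single gene was the highest (32.69%), as was its share of ambiguous reads (15.57%), which the former includes. A technical and a biological cause cannot be told apart here.

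The long-term change differed between *Ctsd*+/+ and *Ctsd*-/- cells, by the edgeR interaction test, for 5 of the 9 genes, against 30.3% of all genes tested. One of them, *Serpinf1*, passed the filter only through 1% FCS *Ctsd*+/+, where it is high, and its value is a description. The interaction log2 FC was 3.02 for *Plat*, 2.74 for *Serpine2*, 5.14 for *Serpinf1* and 4.57 for *Serpinh1*, and −2.87 for *Serpinb5*. For *Plat*, *Serpinf1* and *Serpinb5* the 1% FCS *Ctsd*+/+ cultures, in which *Col1a1* was at 531, 2320.1 and 1460.1 CPM, carried the change over time, and the part of that difference was not tested. For *Serpinh1* it rested on the *Ctsd*-/- cultures, with 1.39, 0.602 and 0.207 CPM in 1% FCS and 64.4, 8.60 and 1.11 CPM in 1% FCS LT.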

How the results depend on the processing

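Across the tools, scalings, filters, count forms, thresholds and subsets, 97 of 114 counts of called genes stayed within 1.5 times the main count, and 415 of 446 single log2 FC kept their sign and side of the threshold. In tumors, the threshold of unadjusted p under 0.1 gave 2 genes lower in place of 0. Requiring 10 counts in every sample left 7 of the 9 genes tested in cells and gave 2 lower in 1% FCS in place of 4 and 2 higher in the interaction in place of 4, since *Serpinf1* and *Serpinh1* were then not tested. It gave 2 lower in the interaction in place of 1, with *Serpinb2* at −2.35 (adjusted p = 0.0494). With long-term starvation *Ctsd*-/- against *Ctsd*+/+, limma-voom gave 2 lower in place of 1, and requiring an absolute log2 FC over 1 gave 0. For the long-term change in *Ctsd*-/- cells, where the main count was 0, DESeq2, no filter and the samples of 1 LR number each gave 2 higher, and the samples of 1 LR number and the compared groups alone each gave 1 lower. In *Ctsd*+/+ cells the samples of 1 LR number gave 3 higher in place of 1. In the interaction, DESeq2 and no filter each gave 3 lower and the samples of 1 LR number gave 2, in place of 1. The cause of these shifts was not tested.

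Without 1 sample at a time, 76 of 88 counts stayed within 1.5 times, and 345 single log2 FC kept their sign and side of the threshold, while 16 reversed, 26 lost a call and 9 gained one. In 1% FCS LT *Ctsd*-/- against *Ctsd*+/+ the higher count ran from 1 to 3 and the lower count from 0 to 1. For the long-term change in *Ctsd*-/- cells both ran from 0 to 1, in *Ctsd*+/+ cells the higher count ran from 1 to 2, and in the interaction the lower count ran from 1 to 3.

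Same-numbered samples share only a number in the labels. Their deviations from the group means correlated at −0.111 on average in tumors, 0.064 in 1% FCS LT, 0.147 in *Ctsd*-/- cells and −0.079 in *Ctsd*+/+ cells, with at least 1 pair under 0.1 in each. In 1% FCS the average was 0.254 beside −0.126 between other numbers, with the lowest pair at 0.1, the limit set for pairing, and the replicate block changed no call there. With the replicate block the higher and lower counts in 1% FCS LT were 2 and 2 in place of 3 and 1, the lower count in *Ctsd*+/+ cells was 2 in place of 3, and the lower count in the interaction was 2 in place of 1. The adjusted p of *Serpine2* was 0.0608 in 1% FCS LT and 0.0563 in *Ctsd*+/+ cells, that of *Serpinh1* was 0.0388 in 1% FCS LT, and that of *Plau* was 0.0487 in the interaction, and no other call changed.

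The sign turned for uncalled values near 0. In tumors *Plau* (0.00) was −0.006 with DESeq2 and with RLE size factors and ran from −0.266 to 0.202 without 1 tumor, and *Serpinh1* (0.03) was −0.026 with limma-voom, −0.041 with the replicate block and −0.302 to 0.188 without 1 tumor. *Plat* ran from −0.755 to 0.228 and *Serpinf1* from −0.385 to 0.225. For the long-term change in *Ctsd*-/- cells *Plgrkt* was −0.093 with the samples of 1 LR number and −0.036 to 0.085 without 1 culture, *Plat* ran from −0.053 to 0.435, *Serpinb5* from −0.47 to 0.035 and *Serpinf1* from −0.139 to 0.7. In *Ctsd*+/+ cells *Plau* was −0.292 with the samples of 1 LR number and −0.057 to 0.63 without 1 culture. Over all genes, DESeq2 called 204 higher and 61 lower in tumors, where edgeR called 1 and 0, and 666 higher and 418 lower for the long-term change in *Ctsd*-/- cells, where edgeR called 238 and 123. Without *Ctsd*-/- replicates 2 and 3 of 1% FCS in turn, edgeR called 33 and 30, and 31 and 30, of all genes in that comparison. Depth limits *Serpinf1* in cells and *Serpinb2* in tumors.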
